A study of Mus musculus with 21 samples.

Results

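The genes described here encode voltage-gated and potassium ion channels and their subunits. Protein-coding genes whose names begin with Kcn, Cacn or a Scn number with a or b were taken from the mouse annotation, together with Abcc8 and Abcc9. Of 136 such genes among the 55536 genes in the files, 69 had at least 50 read pairs per sample on average over the 21 samples and are called members below, made up of 48 potassium, 14 calcium and 7 sodium channel genes. The other 67 fell short of that mean, including 12 with fewer than 10 read pairs and 4 with none. All 69 members passed the filter on low counts and were among the 27229 genes tested. Over all samples together, the members nearest the border were Kcnd2 at 1062, Kcnj10 at 1065, Kcnh8 at 1204 and Kcnj12 at 1211 read pairs, and just outside it were Kcnk10 at 980, Kcnj8 at 859, Cacna1f at 850 and Cacna2d4 at 754.

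RNA was sequenced from pancreatic islets of male CBA mice on a regular diet (RD), a high-fat diet (HFD) or the same HFD containing O304 at 0.8 mg per g (HFD-O304). O304 activates AMPK, a kinase that senses low cellular energy. Diets began at 10 weeks of age and islets were taken at 20 weeks. Each group had 7 samples, and each sample held RNA from 150 islets of a pool of 5 mice. A value therefore pools animals and all islet cell types. RD mice received neither the high-fat diet nor O304. HFD-O304 replicate 1 is titled HFD-O304 but carries HFD in its diet tag, and it was kept in the group of its title.

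Beta cells use ion channels to turn glucose into insulin release. ATP from glucose closes the KATP channel, which is built from Kcnj11 pores and Abcc8 sulfonylurea receptors. The membrane then depolarises, calcium enters through voltage-gated calcium channels and triggers exocytosis, sodium channels shape the upstroke, and voltage-gated, calcium-activated and leak potassium channels return the membrane to rest. Alpha and delta cells of the islet fire action potentials as well and use many of the same channel families.

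RefSeq promoters (GRCm38.p6, 250 bases before to 50 bases after a transcription start) were listed for 47 of the 69 members. Those of 6 members with 1 listed start are shown because these genes had some of the larger decreases. The first 3 fell in HFD islets and the last 3 were lower in HFD-O304 islets than in both other groups. Capitals mark GGGCGG or its reverse complement CCGCCC, the core of the GC box.
Kcnh8 promoter, chr17:52602459-52602758, plus strand: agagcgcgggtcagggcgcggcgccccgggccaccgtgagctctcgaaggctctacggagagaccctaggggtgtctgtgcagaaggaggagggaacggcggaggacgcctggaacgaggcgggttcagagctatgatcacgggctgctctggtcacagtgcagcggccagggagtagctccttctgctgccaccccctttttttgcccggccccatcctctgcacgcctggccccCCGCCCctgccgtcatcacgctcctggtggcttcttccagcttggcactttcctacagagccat
Kcnj12 promoter, chr11:61065554-61065853, plus strand: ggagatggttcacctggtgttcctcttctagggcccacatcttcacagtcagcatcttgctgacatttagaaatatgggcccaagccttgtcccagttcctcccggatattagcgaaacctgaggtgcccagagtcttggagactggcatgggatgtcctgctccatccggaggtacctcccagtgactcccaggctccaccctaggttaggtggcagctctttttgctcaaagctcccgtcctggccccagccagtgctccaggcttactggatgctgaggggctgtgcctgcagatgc
Cacna2d2 promoter, chr9:107399630-107399929, plus strand: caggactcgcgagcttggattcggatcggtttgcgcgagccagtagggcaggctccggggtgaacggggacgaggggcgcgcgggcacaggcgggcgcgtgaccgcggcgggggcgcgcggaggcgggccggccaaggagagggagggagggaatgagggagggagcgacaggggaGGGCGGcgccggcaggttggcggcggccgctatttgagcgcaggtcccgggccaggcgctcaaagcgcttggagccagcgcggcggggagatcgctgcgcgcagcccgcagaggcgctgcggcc
Kcnip2 promoter, chr19:45816014-45816313, minus strand: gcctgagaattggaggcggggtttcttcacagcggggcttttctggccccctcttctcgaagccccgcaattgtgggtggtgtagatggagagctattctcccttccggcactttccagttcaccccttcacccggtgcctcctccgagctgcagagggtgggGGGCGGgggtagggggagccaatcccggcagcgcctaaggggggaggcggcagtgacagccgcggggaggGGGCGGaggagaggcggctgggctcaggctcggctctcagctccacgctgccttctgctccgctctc
Kcna2 promoter, chr3:107101317-107101616, plus strand: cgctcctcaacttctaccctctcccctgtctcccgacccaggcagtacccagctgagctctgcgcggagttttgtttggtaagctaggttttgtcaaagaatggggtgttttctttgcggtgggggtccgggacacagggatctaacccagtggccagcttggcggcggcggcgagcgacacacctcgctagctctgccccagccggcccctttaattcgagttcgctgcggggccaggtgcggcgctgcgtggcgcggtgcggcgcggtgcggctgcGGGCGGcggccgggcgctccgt
Kcnh1 promoter, chr1:192190527-192190826, plus strand: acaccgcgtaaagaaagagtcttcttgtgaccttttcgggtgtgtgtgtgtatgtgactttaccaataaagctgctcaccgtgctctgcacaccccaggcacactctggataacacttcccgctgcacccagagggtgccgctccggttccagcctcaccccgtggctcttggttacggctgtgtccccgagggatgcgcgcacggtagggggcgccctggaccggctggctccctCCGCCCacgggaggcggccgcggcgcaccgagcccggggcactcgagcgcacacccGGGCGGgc
Both strands were searched for 4 motifs, namely the GC box core GGGCGG, the TATA box TATAAA, the E-box CACGTG and the cAMP response element TGACGTCA, none of which contains another, and only the GC box occurred in these 6 windows. It was found in 35.7% of all 32851 listed promoters of this length and in 50% of the 68 listed member promoters. TATAAA occurred in 2.94% of the member promoters and 13.6% of all promoters, and CACGTG in 7.35% and 7.15%. TGACGTCA was in 0 of the 68 member promoters and in 1.79% of all promoters. CpG pairs numbered 21 in the Kcnh8 window, 4 in Kcnj12, 43 in Cacna2d2, 18 in Kcnip2, 31 in Kcna2 and 27 in Kcnh1. The median over all promoters was 7, so that the Kcnj12 window differed from the other 5 in having few. That window lies inside the annotated Kcnj12 gene, which spans chr11:61022564-61071131, and not at the annotated start of the gene.

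Read pairs on genes ranged from 13809266 to 48922569 per sample, HFD-O304 replicate 2 having the fewest. No pair of samples within a group agreed within counting noise. Values by sample are normalised read pairs, that is read pairs divided by a size factor for depth, and differences are log2 fold changes with their standard errors from edgeR's quasi-likelihood test. Adjusted p is the Benjamini-Hochberg value over all 27229 genes, and a gene passed at under 0.01. In bulk islets, fewer cells of a type and less RNA per cell cannot be told apart.

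Per kilobase of exon, the potassium channel genes with the highest levels in RD islets were Kcnk16, Abcc8 and Kcnj11. Kcnk16, a pancreatic tandem-pore leak channel opened by alkaline pH, had 8388 ± 479 normalised read pairs per kb (SD, n = 7). Abcc8 had 3786 ± 362 and Kcnj11 1279 ± 62.5 per kb. These 3 genes did not overlap each other in level, while Kcnj11 overlapped the next gene, Kcnmb2, at 1163 ± 126. The leading calcium channel genes were below these on this scale, with Cacnb3 at 476 ± 47.5, Cacna2d1 at 453 ± 41.2 and Cacna1d at 382 ± 20.7 per kb, neighbours whose ranges overlapped. Cacna1d and Cacna1c encode the L-type pores, and Cacna1c stood at 139.6 ± 13.9 per kb, below Cacna1a, the P/Q-type pore, at 230.4 ± 32.3. The leading sodium channel genes were lower again, with Scn3a at 98.3 ± 12.3 and Scn8a at 84.6 ± 7.42 per kb, and these ranges also overlapped.

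HFD islets were compared with RD islets to see what the diet changed. Of the 69 members, 9 passed the test, 1 higher and 8 lower, which is 13.04% beside 3.54% of all genes tested (2.00% higher and 1.54% lower). Channel genes by name below the limit on read pairs passed at 5.45%, and the part of read depth was not tested. The members' median log2 fold change was -0.13 and that of all genes was -0.004. The groups did not overlap for 2 members, Kcnh8 and Cacna2d2, beside 1.35% of all genes. Of the 8 that were lower, 5 were potassium and 3 calcium channel genes, and no sodium channel gene passed by edgeR or DESeq2, although 3 had an unadjusted p under 0.05.

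HFD-O304 islets were compared with HFD islets to see what O304 changed on the same diet. Here 28 members passed, 15 higher and 13 lower, which is 40.6% beside 11.9% of all genes (5.08% higher and 6.79% lower), and 17 members had no overlap between groups beside 6.17% of all genes. Channel genes by name below the limit on read pairs passed at 14.5%. The part of read depth in the larger share of members was not tested. The median log2 fold change was 0.11 over the members and 0.03 over all genes. This comparison shares the HFD samples with HFD vs RD, so that the values of a gene in both are not independent and are given side by side below.

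HFD-O304 islets were compared with RD islets to see what remained. No member was higher by edgeR or DESeq2 (11 estimates above 0 had an unadjusted p under 0.05) and 7 were lower, which is 10.1% beside 1.31% of all genes (0.404% higher and 0.903% lower), with 4 members without overlap beside 1.56%. All 7 were potassium channel genes. Channel genes by name below the limit on read pairs passed at 3.64%. Over the 3 comparisons, 30 members passed at least once and 39 did not.

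**Figure D1:**
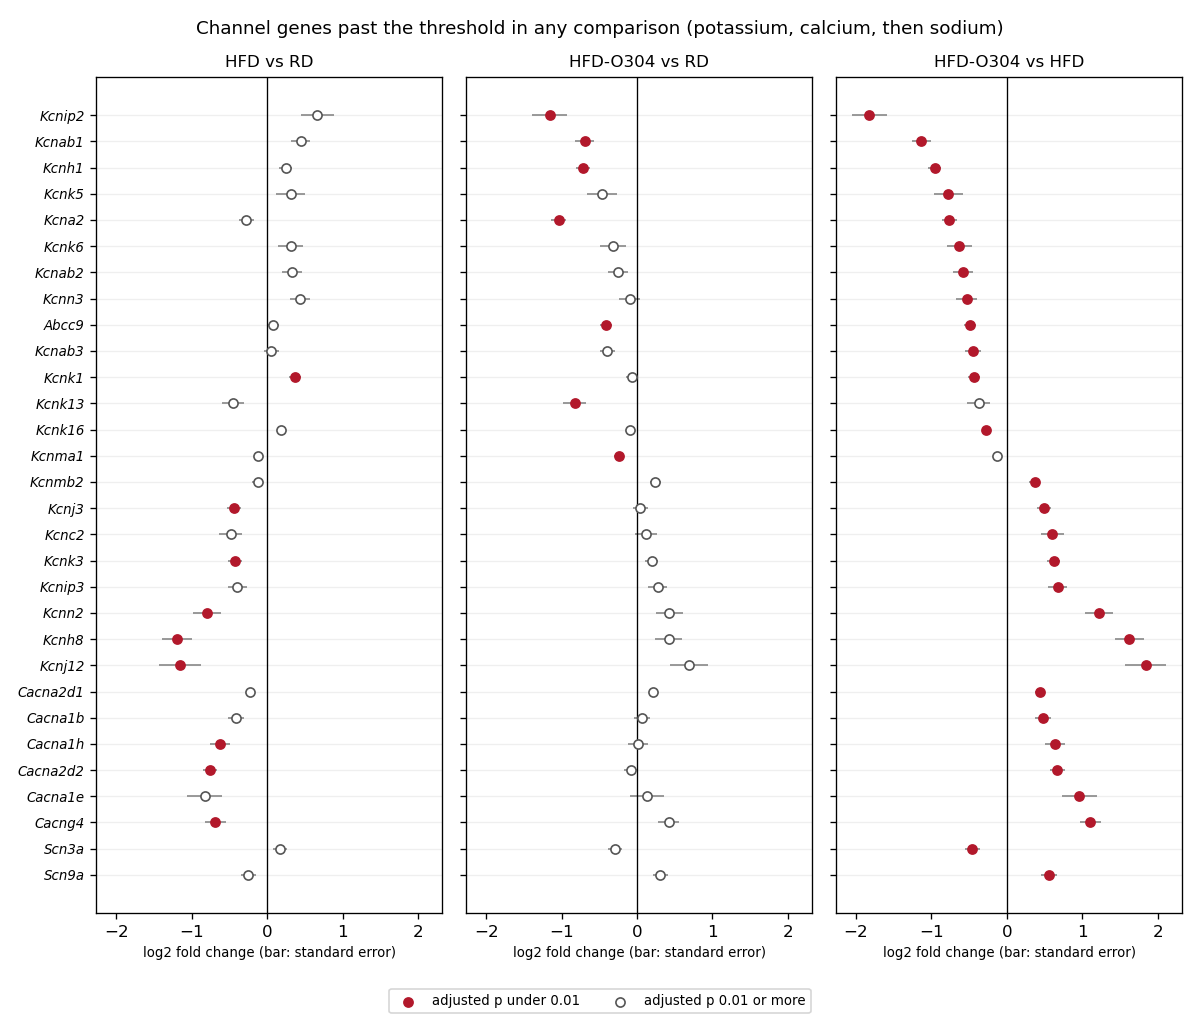
Log2 fold changes (x axis) with standard errors of the 30 members that passed in any comparison, potassium genes at the top, then calcium and sodium genes, in HFD vs RD, HFD-O304 vs RD and HFD-O304 vs HFD. Filled points passed an adjusted p of 0.01, and the estimates in HFD-O304 vs HFD run from Kcnip2 at -1.82 to Kcnj12 at 1.84.

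The plot of log2 fold changes shows all members that passed, ordered within each class by the difference between HFD-O304 and HFD. Replicates 1 to 4 and 5 to 7 came from separate sets of library numbers. Within each set alone, every member that passed in a comparison had the same direction there. These members were picked in a fit that holds both sets, so that equal directions were likely beforehand and are no separate support. The number that still passed was 4 and 3 of 9 in HFD vs RD, 2 and 3 of 7 in HFD-O304 vs RD, and 20 and 16 of 28 in HFD-O304 vs HFD. When replicate 1 of HFD-O304 was left out, 14 members were higher and 10 lower than in HFD, and 5 were lower than in RD.

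The KATP genes lie side by side on chromosome 7, Abcc8 at chr7:46104523-46180033 and Kcnj11 at chr7:46093953-46100764 (GRCm38), and neither passed in any comparison. Kcnj11, the pore, had 4458 to 5155 in RD (median 4682), 3798 to 4769 in HFD (median 4388) and 4279 to 5467 in HFD-O304 (median 4790.0) normalised read pairs. Abcc8, the receptor, had 27074 to 34059 in RD (median 30061), 23708 to 30491 in HFD (median 28337) and 25238 to 33531 in HFD-O304 (median 29982). The 3 groups overlapped for both genes. The log2 fold changes in HFD vs RD were -0.13 ± 0.06 (SE, adjusted p = 0.224) for Kcnj11 and -0.13 ± 0.07 (SE, adjusted p = 0.255) for Abcc8, and in HFD-O304 vs HFD they were 0.16 ± 0.06 (SE, adjusted p = 0.077) and 0.10 ± 0.07 (SE, adjusted p = 0.353). For every 100 read pairs of Kcnj11 there were 649.5 of Abcc8 in RD islets, 651 in HFD islets and 624 in those of HFD-O304 (geometric means, n = 7), and the exact permutation test found adjusted p of 0.942, 0.527 and 0.483 for HFD vs RD, HFD-O304 vs RD and HFD-O304 vs HFD.

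KATP channels of vascular muscle are built from other subunits. Abcc9, the receptor of that channel, had 321 to 424 in RD (median 388), 359 to 443 in HFD (median 407) and 259 to 345 in HFD-O304 (median 271) normalised read pairs, so that all HFD-O304 samples were below all HFD samples. It fell by 0.49 on the log2 scale from HFD to HFD-O304 (SE 0.08, adjusted p = 4.91e-05) and by 0.41 from RD to HFD-O304 (SE 0.08, adjusted p = 0.00269), the latter lost without RD replicate 2 or 3 or HFD-O304 replicate 1 or 5 (adjusted p up to 0.0124). Kcnj8, its usual pore, was just short of membership and had 25.6 to 43.8 in RD (median 38.1), 34.1 to 54.6 in HFD (median 37.3) and 25.9 to 65.3 in HFD-O304 (median 41.9), with a log2 fold change of 0.02 ± 0.18 (SE, adjusted p = 0.969) in HFD-O304 vs HFD. From RD to HFD, Abcc9 did not pass, with log2 fold changes of 0.039 to 0.113 in fits that each left out 1 sample (edgeR adjusted p of 0.452 to 0.87). Markers of pericytes and smooth muscle fell with Abcc9 from HFD to HFD-O304. All 8 on the list fixed for these cells were lower in HFD-O304 than in HFD and 5 were higher in HFD than in RD, with summed levels of 10738 to 14984 in RD, 13711 to 22214 in HFD, 7060.4 to 11083 in HFD-O304. Their part in the change of Abcc9 was not tested.

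The delayed rectifier pore Kcnb2 had 396 to 559.9 in RD (median 459), 364 to 545 in HFD (median 406) and 427 to 527 in HFD-O304 (median 488) normalised read pairs and did not pass, with log2 fold changes of -0.16 ± 0.09 (SE, adjusted p = 0.301) in HFD vs RD and 0.18 ± 0.09 (SE, adjusted p = 0.157) in HFD-O304 vs HFD. Kcnh2 and Kcnh6, ether-a-go-go-related channels, had log2 fold changes of 0.04 ± 0.11 (SE, adjusted p = 0.853) and -0.19 ± 0.09 (SE, adjusted p = 0.124) in HFD-O304 vs HFD. The Kcnq pores did not pass either, Kcnq1 having 89 to 142 in RD (median 107.8), 92.6 to 141 in HFD (median 115.3) and 86.2 to 151 in HFD-O304 (median 125). The groups overlapped for all of these genes.

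The 5 potassium channel genes that fell in HFD islets were Kcnh8, Kcnj12, Kcnn2, Kcnj3 and Kcnk3, and each is given with its values in HFD-O304 as well. Kcnh8 (Ensembl gene ENSMUSG00000035580), a voltage-gated channel of the Elk branch of the ether-a-go-go family, had 37.3 to 84.3 in RD (median 58.7), 15.1 to 35.6 in HFD (median 26.2) and 57.9 to 96.1 in HFD-O304 (median 77.6) normalised read pairs. All HFD samples were below all samples of both other groups. Its log2 fold changes were -1.199 ± 0.20 (SE, adjusted p = 0.000309) in HFD vs RD, 0.42 ± 0.18 (SE, adjusted p = 0.255) in HFD-O304 vs RD and 1.62 ± 0.19 (SE, adjusted p = 7.63e-07) in HFD-O304 vs HFD.

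Kcnj12, a strong inward rectifier, had 28.7 to 77.9 in RD (median 57.1), 7.08 to 37.8 in HFD (median 19) and 49.6 to 115.7 in HFD-O304 (median 83.5) normalised read pairs. HFD overlapped RD but lay wholly below HFD-O304. It had log2 fold changes of -1.15 ± 0.28 (SE, adjusted p = 0.00975) in HFD vs RD and 1.84 ± 0.27 (SE, adjusted p = 1.48e-05) in HFD-O304 vs HFD. The change from RD did not pass without RD replicate 1, 4, 5, 6 or 7 or HFD replicate 1, 2, 3 or 4 (adjusted p up to 0.0252).

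Kcnn2, a small-conductance channel opened by calcium, had 55.4 to 76.2 in RD (median 63), 18.4 to 55.7 in HFD (median 34.1) and 65.3 to 109.5 in HFD-O304 (median 88.4). HFD and RD overlapped by 1 HFD sample, and all HFD-O304 samples were above HFD. It had log2 fold changes of -0.79 ± 0.19 (SE, adjusted p = 0.00752) in HFD vs RD and 1.22 ± 0.18 (SE, adjusted p = 1.72e-05) in HFD-O304 vs HFD, the former lost without RD replicate 1, 5, 6 or 7 or HFD replicate 1, 2, 3, 4 or 5 (adjusted p up to 0.0215). Kcnn3 had 2268 to 4583 in RD (median 3376), 3486 to 5573 in HFD (median 4349) and 2305 to 3976 in HFD-O304 (median 3058) and fell by 0.53 on the log2 scale from HFD to HFD-O304 (SE 0.14, adjusted p = 0.00607), with overlap between the groups and a call lost without HFD replicate 1, 2 or 3 or HFD-O304 replicate 1, 5, 6 or 7 (adjusted p up to 0.019). Kcnn1 and Kcnn4 had log2 fold changes of 0.10 ± 0.16 (SE, adjusted p = 0.751) and -0.38 ± 0.20 (SE, adjusted p = 0.21).

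Kcnj3, a subunit of the G protein-gated inward rectifiers opened by inhibitory receptors, had 178 to 249 in RD (median 210.4), 135 to 183 in HFD (median 154) and 199 to 243 in HFD-O304 (median 225). The log2 fold changes of Kcnj3 were -0.44 ± 0.09 (SE, adjusted p = 0.00352) in HFD vs RD and 0.49 ± 0.09 (SE, adjusted p = 0.000374) in HFD-O304 vs HFD. The decrease in HFD was lost without RD replicate 5 or 7 or HFD replicate 4 or 5 (adjusted p up to 0.0123). Kcnj6, another subunit of these channels, did not pass, with log2 fold changes of 0.04 ± 0.09 and -0.11 ± 0.09 (SE, adjusted p = 0.873 and 0.491).

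Among the 7 tandem-pore leak channel genes, Kcnk1 rose and Kcnk3 fell from RD to HFD, and from HFD to HFD-O304 Kcnk3 rose and 4 fell. Kcnk3, closed by acid, had 487 to 680.1 in RD (median 543), 316 to 545 in HFD (median 399) and 559 to 673 in HFD-O304 (median 659), with log2 fold changes of -0.43 ± 0.09 (SE, adjusted p = 0.0035) in HFD vs RD and 0.62 ± 0.09 (SE, adjusted p = 1.26e-05) in HFD-O304 vs HFD. The HFD samples lay below all HFD-O304 samples, and the decrease was lost without RD replicate 1 (adjusted p up to 0.0114). Kcnk1, a weak inward-rectifying leak channel, was the 1 member that rose in HFD. It had 1405 to 1953 in RD (median 1612), 1776 to 2424 in HFD (median 2066) and 1361 to 1731 in HFD-O304 (median 1539.9), with log2 fold changes of 0.37 ± 0.08 (SE, adjusted p = 0.00323) and -0.44 ± 0.08 (SE, adjusted p = 0.000131), and the increase was lost without RD replicate 5 or 7 or HFD replicate 4 (adjusted p up to 0.0111). Kcnk16 had 18376 to 21841 in RD (median 20095), 20272 to 26246 in HFD (median 22067) and 17966 to 19906 in HFD-O304 (median 18403). It fell by 0.28 on the log2 scale from HFD to HFD-O304 (SE 0.05, adjusted p = 0.000403) without overlap, while its change in HFD vs RD was 0.18 ± 0.05 (SE, adjusted p = 0.0377).

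Kcnk5 and Kcnk6 were also lower in HFD-O304 than in HFD. Kcnk5 had 115.3 to 194 in RD (median 164), 147 to 338 in HFD (median 174) and 73.9 to 193 in HFD-O304 (median 100.3) normalised read pairs. Kcnk6 had 42.8 to 72.9 in RD (median 59.3), 53.2 to 91.1 in HFD (median 68.7) and 29.2 to 61.9 in HFD-O304 (median 45.7). The groups overlapped in both genes, and the log2 fold changes were -0.78 ± 0.19 (SE, adjusted p = 0.00471) and -0.63 ± 0.17 (SE, adjusted p = 0.00718). Kcnk5 did not pass without HFD replicate 4 or HFD-O304 replicate 1, 2, 5 or 6 (adjusted p up to 0.0168), nor Kcnk6 without HFD replicate 2, 4, 5 or 6 or HFD-O304 replicate 1, 3, 5 or 6 (adjusted p up to 0.023). In Kcnk5, HFD replicate 4 stood at 338 normalised read pairs above 147 to 201 in the other HFD samples. Kcnk12 had a log2 fold change of 0.34 ± 0.21 (SE, adjusted p = 0.308) in HFD-O304 vs HFD.

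**Figure D2:**
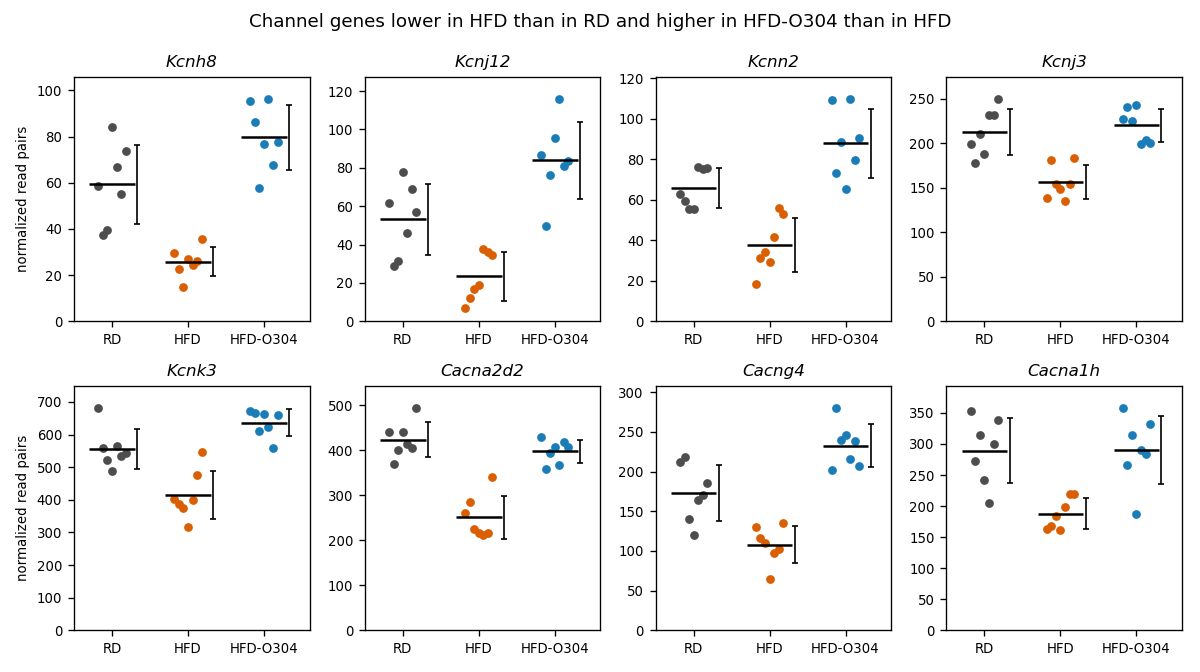
Normalised read pairs (y axis from 0) in each of the 7 samples of RD, HFD and HFD-O304 for the 8 members that were lower in HFD and higher in HFD-O304 than in HFD, with lines at the mean and bars of 1 SD. In Kcnh8 the HFD samples lie at 15.1 to 35.6, below all RD and HFD-O304 samples.

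The plot by sample of these 8 genes also shows the 3 calcium channel genes that fell in HFD. All 14 calcium channel estimates were below 0 in HFD vs RD, their median on the log2 scale being -0.34, and 13 of 14 were above 0 in HFD-O304 vs HFD, with a median of 0.46. In HFD-O304 vs RD, 7 were above and 7 below 0 with a median of 0.002, and none passed by edgeR or DESeq2, 2 having an unadjusted p under 0.05. In HFD vs RD 3 passed, all lower, which is 21.4% beside 3.54% of all genes. Against HFD 6 passed in HFD-O304, all higher, which is 42.9% beside 11.9% of all genes. Of all 27229 genes, 13841 had estimates below 0 in HFD vs RD and 14540 above 0 in HFD-O304 vs HFD. The HFD samples are shared by these 2 comparisons, so that their signs are not independent.

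Cacna2d2, an auxiliary subunit that carries calcium channel pores to the membrane, had the smallest adjusted p of these genes in HFD vs RD. It had 370.3 to 493 in RD (median 415), 212 to 339.8 in HFD (median 224) and 358 to 429 in HFD-O304 (median 408) normalised read pairs, HFD lying wholly below both other groups. In log2 fold changes this was -0.76 ± 0.09 (SE, adjusted p = 1.87e-05) in HFD vs RD, -0.09 ± 0.09 (SE, adjusted p = 0.756) in HFD-O304 vs RD and 0.67 ± 0.09 (SE, adjusted p = 7.9e-06) in HFD-O304 vs HFD. Cacna2d1, the member of this subunit family with more reads per kb in RD, had 4911 to 6129 in RD (median 5757), 4303 to 5265 in HFD (median 4777) and 5872 to 7275 in HFD-O304 (median 6469). It had log2 fold changes of -0.22 ± 0.06 (SE, adjusted p = 0.0261) in HFD vs RD and 0.44 ± 0.06 (SE, adjusted p = 9.35e-06) in HFD-O304 vs HFD, where the groups did not overlap.

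Cacng4, a subunit of the gamma family that also regulates AMPA-type glutamate receptors, had 120.6 to 218 in RD (median 170.3), 64.1 to 135 in HFD (median 110.5) and 201 to 279.5 in HFD-O304 (median 239). Its log2 fold changes were -0.69 ± 0.14 (SE, adjusted p = 0.00253) in HFD vs RD and 1.11 ± 0.14 (SE, adjusted p = 1.82e-06) in HFD-O304 vs HFD, and all HFD-O304 samples were above all HFD samples. Cacna1h, a T-type pore that opens at low voltage, had 205 to 352 in RD (median 300.4), 162 to 219.9 in HFD (median 184) and 187 to 357 in HFD-O304 (median 290.1), with log2 fold changes of -0.62 ± 0.13 (SE, adjusted p = 0.00276) and 0.64 ± 0.13 (SE, adjusted p = 0.000646). Its groups overlapped in each comparison. The other T-type pores had estimates of the same signs without passing, Cacna1g with -0.51 ± 0.17 (SE, adjusted p = 0.0644) and 0.48 ± 0.17 (SE, adjusted p = 0.0465), and Cacna1i with -0.49 ± 0.17 (SE, adjusted p = 0.0786) and 0.56 ± 0.17 (SE, adjusted p = 0.0209).

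Cacna1b, the N-type pore, and Cacna1e, the R-type pore, were higher in HFD-O304 than in HFD, with log2 fold changes of 0.48 ± 0.11 (SE, adjusted p = 0.00204) and 0.96 ± 0.23 (SE, adjusted p = 0.00361). Cacna1b had 441 to 611 in RD (median 550.0), 286 to 498 in HFD (median 414) and 469 to 636 in HFD-O304 (median 591). Cacna1e had 33.1 to 111.04 in RD (median 67.7), 15.1 to 54.6 in HFD (median 42.5) and 51.2 to 96.7 in HFD-O304 (median 77.2), and its groups overlapped as did those of Cacna1b. The call for Cacna1e was lost without HFD replicate 4 or HFD-O304 replicate 1 (adjusted p up to 0.0117).

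The L-type and P/Q-type pores and the beta subunits did not pass. Cacna1d had 4518 to 5310.3 in RD (median 4847), 3757 to 4637 in HFD (median 4331) and 4206 to 5077 in HFD-O304 (median 4749), with log2 fold changes of -0.16 ± 0.06 (SE, adjusted p = 0.0814) in HFD vs RD and 0.14 ± 0.06 (SE, adjusted p = 0.089) in HFD-O304 vs HFD. Cacna1c had 2517 to 3423 in RD (median 2919), 2039.9 to 2753 in HFD (median 2645) and 2369 to 3295 in HFD-O304 (median 3006), with -0.24 ± 0.08 (SE, adjusted p = 0.0691) and 0.23 ± 0.08 (SE, adjusted p = 0.0454). Both pores had their lowest median in HFD, with overlap throughout. For every 100 read pairs of Cacna1d there were 61.3 of Cacna1c in RD islets, 57.9 in HFD islets and 61.7 in those of HFD-O304, and the exact permutation test found adjusted p of 0.238, 0.92 and 0.184 in HFD vs RD, HFD-O304 vs RD and HFD-O304 vs HFD. Cacna1a had log2 fold changes of -0.05 ± 0.09 (SE, adjusted p = 0.828) and -0.07 ± 0.09 (SE, adjusted p = 0.655). Cacnb2, the beta subunit with the largest estimate in HFD vs RD, had -0.26 ± 0.08 (SE, adjusted p = 0.0288) in HFD vs RD and 0.20 ± 0.08 (SE, adjusted p = 0.0691) in HFD-O304 vs HFD.

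**Figure D3:**
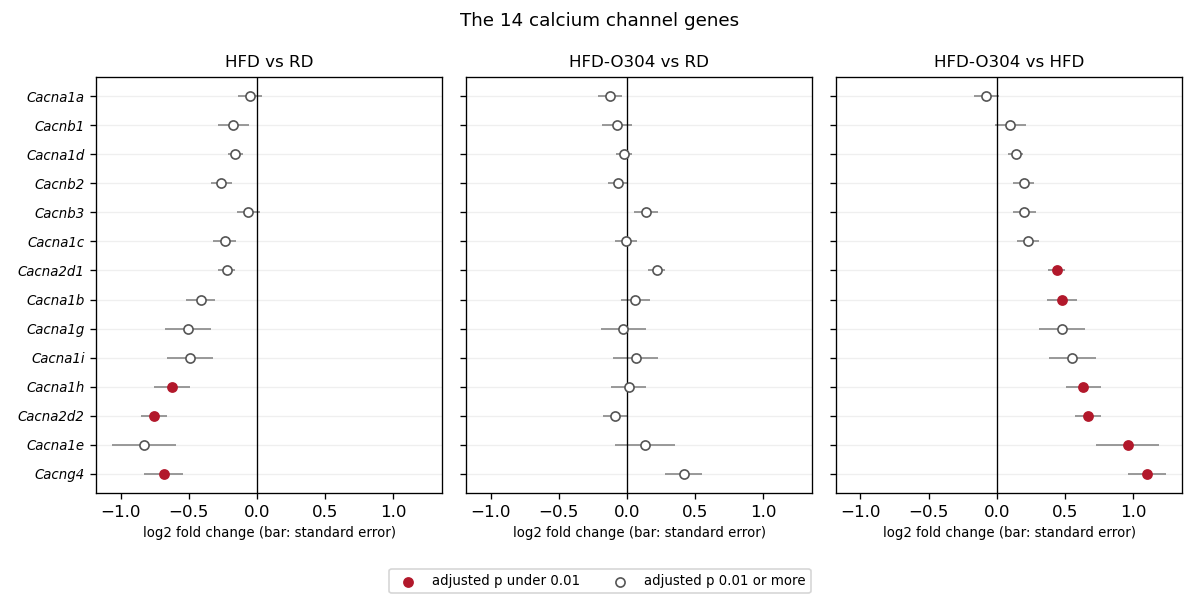
Log2 fold changes (x axis) with standard errors of the 14 calcium channel genes in the 3 comparisons, ordered by HFD-O304 vs HFD, with filled points for an adjusted p under 0.01. All 14 points lie below 0 in HFD vs RD, and all but Cacna1a, at -0.07, lie above 0 in HFD-O304 vs HFD.

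Most markers of alpha and delta cells were also lower in HFD and higher in HFD-O304 than in HFD. Of 9 alpha cell genes, 6 were lower in HFD than in RD and 7 higher in HFD-O304 than in HFD, while Ttr and Gc went the other way. Their summed levels were 860353 to 1071930 in RD, 400459 to 718474 in HFD, 872595 to 1164980 in HFD-O304, and no marker on the list was at 0. Gcg, the glucagon gene, had log2 fold changes of -1.01 (adjusted p = 7.27e-06) from RD to HFD and 1.21 (adjusted p = 2.55e-08) from HFD to HFD-O304. Of 5 delta cell genes tested, 3 were lower in HFD and 4 higher in HFD-O304 than in HFD, with Sst, the somatostatin gene, at -0.66 (adjusted p = 0.00646) and 0.88 (adjusted p = 0.000109). Of 10 beta cell genes, 1 was higher and 2 were lower in HFD than in RD, and 3 were higher and 3 lower in HFD-O304 than in HFD. The part of these cell types in the channel values was not tested.

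The 7 members that were lower in HFD-O304 than in RD were Kcna2, Kcnh1, Kcnab1, Kcnip2, Abcc9, Kcnk13 and Kcnma1. Kcna2, a Shaker-type delayed rectifier pore, had 662 to 1079 in RD (median 878), 629 to 780.1 in HFD (median 679) and 339 to 478 in HFD-O304 (median 403) normalised read pairs. All HFD-O304 samples were below all samples of both other groups. It fell by 1.04 on the log2 scale from RD to HFD-O304 (SE 0.10, adjusted p = 2.81e-07) and by 0.76 from HFD to HFD-O304 (SE 0.10, adjusted p = 2.82e-06), with -0.28 ± 0.10 (SE, adjusted p = 0.0795) in HFD vs RD. Kcna5, the other Shaker-type pore, had log2 fold changes of 0.06 ± 0.13 (SE, adjusted p = 0.898) and 0.11 ± 0.13 (SE, adjusted p = 0.644) in HFD-O304 vs RD and HFD-O304 vs HFD.

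The Kcnab genes encode the cytosolic beta subunits of Shaker-type channels, and all 3 were lower in HFD-O304 than in HFD. Kcnab1 had 67.4 to 105.6 in RD (median 79), 93.9 to 146 in HFD (median 112.1) and 43.3 to 58.5 in HFD-O304 (median 52.2), HFD-O304 lying wholly below both other groups. In log2 fold changes Kcnab1 was -0.69 ± 0.13 (SE, adjusted p = 0.00167) in HFD-O304 vs RD and -1.13 ± 0.13 (SE, adjusted p = 3.01e-07) in HFD-O304 vs HFD. Kcnab2 had 129 to 197 in RD (median 167), 165 to 248 in HFD (median 229) and 88.8 to 178 in HFD-O304 (median 129.9), and Kcnab3 had 472 to 686 in RD (median 650.2), 517 to 865 in HFD (median 585) and 444 to 545 in HFD-O304 (median 463). Their log2 fold changes were -0.58 ± 0.13 (SE, adjusted p = 0.00201) and -0.45 ± 0.10 (SE, adjusted p = 0.00255) in HFD-O304 vs HFD, with overlap between the groups.

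Kcnh1, the ether-a-go-go channel after which the family is named, had 2046 to 2972 in RD (median 2499), 2546 to 3229.9 in HFD (median 2936) and 1189 to 1969 in HFD-O304 (median 1474). It was the member with the smallest adjusted p in HFD-O304 vs HFD, at -0.96 ± 0.09 (SE, adjusted p = 2.1e-08), and it also fell from RD to HFD-O304 at -0.71 ± 0.09 (SE, adjusted p = 1.53e-05). Neither comparison had overlap. Kcnh1 and Kcnh8 thus moved in opposite directions in HFD-O304 vs HFD within 1 family, and the other 4 members of it did not pass.

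Kcnip2 encodes a calcium-binding partner of A-type potassium channels. It had 70.5 to 132 in RD (median 108.9), 94.1 to 216 in HFD (median 183) and 15.9 to 75.4 in HFD-O304 (median 47), with HFD-O304 wholly below HFD and overlapping RD. Its log2 fold changes were -1.82 ± 0.23 (SE, adjusted p = 2.19e-06) in HFD-O304 vs HFD and -1.16 ± 0.24 (SE, adjusted p = 0.00451) in HFD-O304 vs RD. The latter was lost without RD replicate 3, 5, 6 or 7 or HFD-O304 replicate 5 (adjusted p up to 0.015). Kcnip3, a relative also known as a calcium-dependent repressor of transcription, had 215 to 368 in RD (median 329.9), 178 to 319.9 in HFD (median 218) and 319 to 450.3 in HFD-O304 (median 367). It was higher in HFD-O304 than in HFD at 0.67 ± 0.13 (SE, adjusted p = 0.00027), with overlap. Kcnip1 and Kcnip4 had -0.14 ± 0.06 (SE, adjusted p = 0.0759) and 0.10 ± 0.13 (SE, adjusted p = 0.708), and the A-type pores among the members, Kcnd1 and Kcnd2, had 0.20 ± 0.10 (SE, adjusted p = 0.161) and 0.57 ± 0.22 (SE, adjusted p = 0.0714).

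Kcnk13, a tandem-pore channel inhibited by halothane, had 202 to 305 in RD (median 275), 130.3 to 259.9 in HFD (median 181) and 114.9 to 225 in HFD-O304 (median 123) with a log2 fold change of -0.83 ± 0.15 (SE, adjusted p = 0.00155) in HFD-O304 vs RD and -0.37 ± 0.15 (SE, adjusted p = 0.0944) in HFD-O304 vs HFD. Kcnma1, the pore of the large-conductance calcium-activated channel, had 3459.9 to 3925 in RD (median 3702), 3161 to 3703 in HFD (median 3290.1) and 2889 to 3433 in HFD-O304 (median 3146), and HFD-O304 did not overlap RD. Its log2 fold change was -0.25 ± 0.05 (SE, adjusted p = 0.00769) in HFD-O304 vs RD, the smallest of the 7, and it was lost in 13 of 14 fits that each left out 1 sample, the exception being that without HFD-O304 replicate 6 (adjusted p up to 0.0217). Its beta subunit Kcnmb2 had 3204 to 4264 in RD (median 3752), 2971 to 3660.0 in HFD (median 3457) and 3828 to 4971 in HFD-O304 (median 4410.4) and was higher in HFD-O304 than in HFD, at 0.37 ± 0.07 (SE, adjusted p = 0.000297) without overlap. Kcnmb1, the smooth muscle beta subunit, had -0.70 ± 0.20 (SE, adjusted p = 0.0121). Kcnc2, a fast delayed rectifier, had 109.96 to 181 in RD (median 146), 72.1 to 147 in HFD (median 95.4) and 123 to 243 in HFD-O304 (median 154) and was higher in HFD-O304 than in HFD at 0.60 ± 0.15 (SE, adjusted p = 0.00418), lost without HFD replicate 4 or HFD-O304 replicate 2 (adjusted p up to 0.0134), and HFD-O304 replicate 2 was its highest sample.

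**Figure D4:**
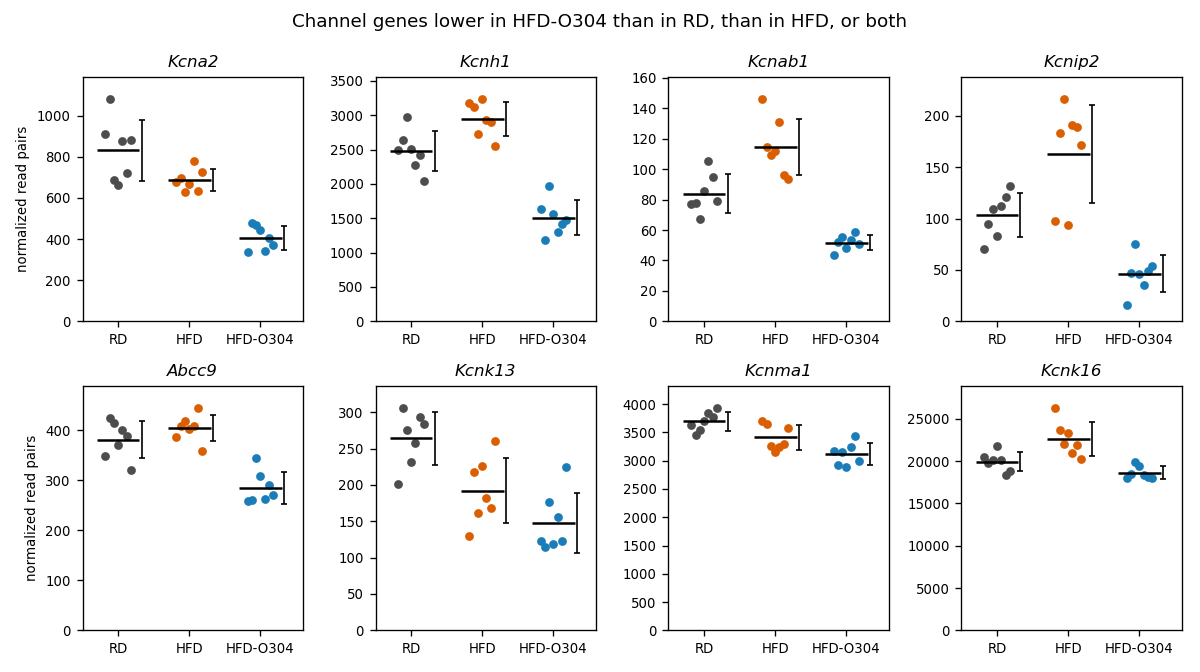
Normalised read pairs (y axis from 0) in each of the 7 samples of RD, HFD and HFD-O304 for the 7 members that were lower in HFD-O304 than in RD and for Kcnk16, with lines at the mean and bars of 1 SD. In Kcna2 the HFD-O304 samples lie at 339 to 478, below all samples of both other groups.

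The plot by sample of these genes shows that 4 of the 7, Kcna2, Kcnh1, Kcnab1 and Kcnma1, had no overlap between HFD-O304 and RD. Beside them, 3 of 8 pericyte and smooth muscle markers and 2 of 8 endothelial markers were lower in HFD-O304 than in RD, and Acta2, smooth muscle actin, had log2 fold changes of -0.82 (adjusted p = 0.00404) from RD to HFD-O304 and -1.73 (adjusted p = 2.63e-08) from HFD to HFD-O304. The endothelial sums were 20672 to 26211 in RD, 19108 to 28361 in HFD, 16967 to 25030.1 in HFD-O304. All 8 proliferation markers were higher in HFD than in RD and lower in HFD-O304 than in HFD, with sums of 852 to 1211 in RD, 965 to 4767 in HFD, 465 to 917 in HFD-O304. The part of these markers in the channel values was not tested. The 12 acinar markers had adjusted p of 0.276 or more, while their sums varied between samples from 730.4 to 319057.

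Sodium channels carry the fast inward current of the action potential. Scn3a at chr2:65457118-65567627 and Scn9a at chr2:66480080-66634962 lie in 1 cluster on chromosome 2 and encode tetrodotoxin-sensitive pores. Scn9a had 582 to 730.4 in RD (median 635), 405 to 715 in HFD (median 558) and 679.7 to 973 in HFD-O304 (median 812) normalised read pairs and Scn3a had 959 to 1434 in RD (median 1238), 1132 to 1693 in HFD (median 1255) and 826 to 1123 in HFD-O304 (median 1035). From HFD to HFD-O304, Scn9a was higher at 0.56 ± 0.10 (SE, adjusted p = 0.00022) and Scn3a lower at -0.46 ± 0.10 (SE, adjusted p = 0.000943), and only Scn3a had no overlap there.

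The ratio of these genes separated all 3 groups. For every 100 read pairs of Scn3a there were 46.4 to 66.3 of Scn9a in RD (median 52.2), 35.8 to 44.6 in HFD (39.7) and 68.8 to 102.97 in HFD-O304 (78.1), with no overlap between any groups. The log2 ratio was -0.89 ± 0.19 in RD islets, -1.32 ± 0.11 in HFD islets and -0.30 ± 0.25 in those of HFD-O304 (SD, n = 7). The difference was -0.43 from RD to HFD, 0.59 from RD to HFD-O304 and 1.02 from HFD to HFD-O304, each with an exact permutation p (2-sided) of 0.000583, the smallest that 7 against 7 samples allow, and 0.00175 after Benjamini-Hochberg adjustment over 9 ratios and comparisons. Within replicates 1 to 4 the differences were -0.47, 0.52 and 0.99 (adjusted exact p = 0.0857, from the smallest raw p that 4 against 4 samples allow). Within replicates 5 to 7 they were -0.37, 0.69 and 1.06 (adjusted exact p = 0.225, where 3 against 3 samples cannot go below a raw p of 0.1).

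**Figure D5:**
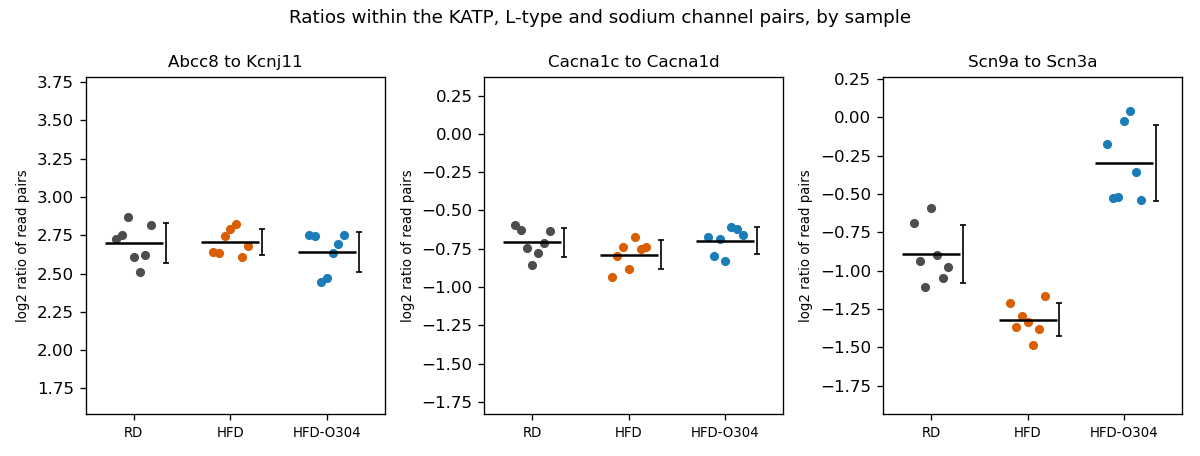
Log2 ratio of read pairs (y axis) of Abcc8 to Kcnj11, Cacna1c to Cacna1d and Scn9a to Scn3a in each of the 7 samples of RD, HFD and HFD-O304, with lines at the mean, bars of 1 SD and axes of the same span. The groups overlap in the KATP and L-type panels and are separate in the sodium channel panel, at means of -0.89, -1.32 and -0.30.

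As the plot of ratios shows, the KATP and L-type pairs kept their groups overlapping. Scn8a did not pass and had 1139 to 1504 in RD (median 1321), 1104 to 1343 in HFD (median 1186) and 1069 to 1360.4 in HFD-O304 (median 1257), at 0.06 ± 0.07 (SE, adjusted p = 0.626) in HFD-O304 vs HFD. Scn7a, a relative that senses extracellular sodium, had 83.3 to 116.4 in RD (median 98.2), 72.1 to 275 in HFD (median 142) and 57 to 180.0 in HFD-O304 (median 100.9), with 0.58 ± 0.22 (SE, adjusted p = 0.109) in HFD vs RD. The beta subunits Scn2b and Scn3b had estimates of 0.15 and 0.09 in HFD-O304 vs HFD, and neither passed by edgeR or DESeq2 or had an unadjusted p under 0.05.

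Of 65 genes that work with these channels, 62 were tested. In HFD vs RD, 1 was higher and 10 lower, in HFD-O304 vs RD 1 was higher, and in HFD-O304 vs HFD 16 were higher and 5 lower. These are 17.7%, 1.61% and 33.9% of the partners beside 3.54%, 1.31% and 11.9% of all genes, so that the share in HFD-O304 vs RD was near that of all genes. The partners were chosen with earlier results of these data known, so that these shares cannot serve as a test of enrichment. The medians were -0.05, 0.01 and 0.06 on the log2 scale. Among 12 cation leak and background channel genes, 4 were lower in HFD and 6 higher in HFD-O304 than in HFD. Trpm5, a cation channel opened by intracellular calcium, had 1619.9 to 2574 in RD (median 1899.8), 479 to 1408 in HFD (median 732) and 4023 to 5746 in HFD-O304 (median 4532) normalised read pairs, and none of its groups overlapped. It had log2 fold changes of -1.18 ± 0.16 (SE, adjusted p = 5.28e-05) in HFD vs RD, 1.23 ± 0.16 (SE, adjusted p = 2.52e-05) in HFD-O304 vs RD, where it was the 1 partner that passed, and 2.40 ± 0.17 (SE, adjusted p = 1.3e-10) in HFD-O304 vs HFD. The others lower in HFD and higher in HFD-O304 than in HFD were the sodium leak channel Nalcn at -0.23 ± 0.05 (SE, adjusted p = 0.00365) and 0.22 ± 0.05 (SE, adjusted p = 0.00198), and its companion subunits Unc80 at -0.27 ± 0.06 (SE, adjusted p = 0.00682) and 0.35 ± 0.06 (SE, adjusted p = 0.000145) and Unc79 at -0.24 ± 0.06 (SE, adjusted p = 0.00768) and 0.22 ± 0.06 (SE, adjusted p = 0.00759). In HFD vs RD, Nalcn was lost without RD replicate 7 or HFD replicate 2 or 5 (adjusted p up to 0.0115), Unc80 without RD replicate 1, 3, 5 or 7 or HFD replicate 1, 4, 5 or 6 (adjusted p up to 0.0218) and Unc79 without RD replicate 1, 2, 3 or 7 or HFD replicate 1, 2, 4, 5 or 6 (adjusted p up to 0.0206). Unc79 in HFD-O304 vs HFD was lost without HFD replicate 1, 4, 5 or 6 or HFD-O304 replicate 1, 2, 5 or 6 (adjusted p up to 0.026). Trpm2, a cation channel opened by ADP-ribose, and Hcn4, a pacemaker channel opened by hyperpolarisation, were higher in HFD-O304 than in HFD at 0.93 ± 0.13 (SE, adjusted p = 4.75e-06) and 0.41 ± 0.10 (SE, adjusted p = 0.00391), the latter lost without HFD replicate 4 or HFD-O304 replicate 3, 5, 6 or 7 (adjusted p up to 0.012).

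Among 17 direct partners of voltage-gated channels, 4 were lower in HFD than in RD, namely Dpp10, Ank2, Fgf14 and Stac2, and in HFD-O304 vs HFD 6 were higher, these and Gem and Nedd4l, and Fgf12 was lower. Gem was lost without HFD replicate 2 or 3 or HFD-O304 replicate 1 or 5 (adjusted p up to 0.0141). Dpp10, a subunit of A-type potassium channels, had 626 to 985 in RD (median 725), 315 to 613 in HFD (median 366) and 779 to 1178 in HFD-O304 (median 1033) normalised read pairs, with log2 fold changes of -0.95 ± 0.12 (SE, adjusted p = 2.67e-05) in HFD vs RD and 1.34 ± 0.12 (SE, adjusted p = 1.25e-08) in HFD-O304 vs HFD. Ank2, an anchor for channels, had -0.74 ± 0.09 (SE, adjusted p = 2.31e-05) and 0.84 ± 0.09 (SE, adjusted p = 3.78e-07). HFD lay wholly below both other groups in both genes. Stac2, which binds L-type channels, had 19.1 to 64 in RD (median 53.4), 5.67 to 22.9 in HFD (median 9.04) and 45.9 to 81.4 in HFD-O304 (median 54.8), with -1.94 ± 0.30 (SE, adjusted p = 0.000173) and 2.35 ± 0.29 (SE, adjusted p = 1.58e-06). Fgf14, a sodium channel regulator, had -0.81 ± 0.17 (SE, adjusted p = 0.00364) and 1.14 ± 0.17 (SE, adjusted p = 1.62e-05), the former lost without RD replicate 6 or 7 or HFD replicate 2 or 4 (adjusted p up to 0.0114).

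In the store and release list, Itpr1, the IP3 receptor, was lower in HFD at -0.74 ± 0.10 (SE, adjusted p = 7.44e-05) and higher in HFD-O304 than in HFD at 0.99 ± 0.10 (SE, adjusted p = 1.32e-07). Ryr2, a ryanodine receptor, had few reads and went the other way, with 3.29 to 16.4 in RD (median 8.31), 9.56 to 179.9 in HFD (median 72.1) and 0.982 to 11.6 in HFD-O304 (median 2.89) normalised read pairs and log2 fold changes of 2.98 ± 0.48 (SE, adjusted p = 0.00025) and -3.97 ± 0.52 (SE, adjusted p = 3.24e-06). Its HFD samples overlapped both other groups. The store-operated pore Orai2 was lower in HFD-O304 than in HFD at -0.45 ± 0.07 (SE, adjusted p = 4.45e-05) and the store sensor Stim2 was higher at 0.19 ± 0.05 (SE, adjusted p = 0.00884), the latter lost in 10 of 14 fits that each left out 1 sample (adjusted p up to 0.0265). The sodium-calcium exchanger Slc8a2 was higher in HFD-O304 than in HFD at 0.55 ± 0.12 (SE, adjusted p = 0.00178). The calcium pump Atp2a2, which fills the store, had -0.30 ± 0.06 (SE, adjusted p = 0.00153) and 0.30 ± 0.06 (SE, adjusted p = 0.00037), with HFD wholly below both other groups. Among 9 chloride channel and transport genes, Ano1 and Slc12a2 were lower in HFD-O304 than in HFD, at -0.55 ± 0.08 (SE, adjusted p = 1.75e-05) and -0.33 ± 0.06 (SE, adjusted p = 0.00027), and none passed in HFD vs RD or HFD-O304 vs RD by edgeR or DESeq2, although 2 and 4 had an unadjusted p under 0.05.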

How the data were processed

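The authors sequenced 21 islet libraries as paired reads, aligned them to GRCm38 with STAR after FastQC, and deposited counts of read pairs per gene, unstranded and by strand, without normalization (tool versions are not given in the sources used here). Read pairs that match several places or genes are not counted, so paralogs and overlapping genes rest on the pairs that tell them apart, and the opposite-strand overlaps of Kcnq1, Cacna1d and Abcc9 rest on strand. The strand holding 28.8 to 36.3 times the other was used. All 55536 identifiers were found in GENCODE vM21. Group and replicate number came from the titles, except that HFD replicate 3 is titled HF and took its group from the diet tag. Precision is set by 7 pooled samples per group, whose spread is between pools and not between mice.

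Genes with at least 10 read pairs over 21 samples were tested with edgeR 4.0.16 (TMM, quasi-likelihood, 3 groups in 1 fit, adjusted p under 0.01) in R 4.3.3. Normalised read pairs used DESeq2 1.42.0 size factors. Ratios of 3 gene pairs used the exact permutation test over all splits (scipy 1.17.1, adjusted p under 0.05). On simulated counts in HFD vs RD, edgeR recovered 76 of 97 genes changed by 0.5 on the log2 scale. It recovered 101 of 103 changed by 1, with 2 false calls. All changed genes had at least 50 read pairs per sample on average, and the spread between samples was edgeR's own estimate. Recovery of genes with fewer reads was not simulated. An interaction of comparison with library set was called in 0 of 27229 genes by edgeR, with an unadjusted p under 0.05 in 7, 4 and 7 members in HFD vs RD, HFD-O304 vs RD and HFD-O304 vs HFD.

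The members, marker lists and lists of working partners were chosen with earlier results of these data known. The text names members that passed anywhere, with values by sample for those with a mean of at least 50 normalised read pairs, a fixed list of major channels, the 3 highest per length in each class, those nearest the limit on read pairs, and partners that passed. A few others are named for comparison and were chosen after their values were seen. Alternatives covered the test, normalization, filters on low counts, unstranded counts, a fit of only 2 groups, a replicate block, the library sets, an acinar covariate, a looser threshold and leaving out each sample. The self-made lists stand in place of pathway terms, ChIP-seq was not analysed here, and a few genes are not reported here.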

Additional observations from a re-analysis of the deposited data

Results flagged for a closer look

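In 4 of 126 sets of 7 samples, 1 sample stood apart from the others by Dixon's test, where chance marks about 1 in 20. Kcnab3 was lowest in RD replicate 2, at 472 normalised read pairs beside 604 to 686 in the other RD samples. Kcnc2 was highest in HFD-O304 replicate 2, at 243 beside 123 to 167. That library was also the shallowest. Kcnk3 was highest in RD replicate 1, at 680.1 beside 487 to 564, and its decrease in HFD did not pass without that sample. Kcnk5 was highest in HFD replicate 4, at 338 beside 147 to 201, and its difference between HFD-O304 and HFD did not pass without that sample.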

How the results depend on the processing

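No result reversed. The member counts that moved by more than 1.5 times were mostly those of HFD vs RD. Against 1 higher, there were 3 by DESeq2, 2 with library set as a covariate, 4 at an adjusted p under 0.05, and 0 with only 2 groups in the fit or replicates 1 to 4 alone. Against 8 lower, there were 13 at an adjusted p under 0.05, 3 with only 2 groups in the fit, and 4 and 2 in replicates 1 to 4 and 5 to 7 alone. The 7 lower in HFD-O304 vs RD became 2 and 4 in these sets, and the 15 higher in HFD-O304 vs HFD became 7 in replicates 5 to 7. The Scn9a to Scn3a ratio kept its direction in both sets (-0.47, 0.52 and 0.99, then -0.37, 0.69 and 1.06) without passing. Each exact p there was the smallest that 4 against 4 or 3 against 3 samples allow, and 3 against 3 samples cannot pass. Leaving out 1 sample gave 0 to 2 higher and 5 to 11 lower in HFD vs RD, 4 to 7 lower in HFD-O304 vs RD, and 13 to 16 higher and 10 to 14 lower in HFD-O304 vs HFD. In HFD vs RD, 5 were lower without RD replicate 1, 5 or 7 or HFD replicate 4, none was higher without RD replicate 5 or 7 or HFD replicate 4, and 2 were higher without RD replicate 2. In HFD-O304 vs RD, 4 were lower without RD replicate 3 or HFD-O304 replicate 5. The replicate block gave 2 higher and 13 lower in HFD vs RD, and the other counts stayed within 1.5 times. Same-numbered samples correlated over 0.1 in 4, 6 and 5 of 7 pairs but not in all. No label states a shared source for the number, and the numbers were not taken as pairs. In replicates 5 to 7, however, the library numbers of same-numbered samples follow each other across the groups. In replicates 1 to 4 they run group by group, so that library order goes with diet there. Of the 14 samples in each comparison, 6, 5 and 5 correlated best with their own number. Mean correlations were 0.202, 0.293 and 0.139 between same-numbered samples and -0.0344, -0.0483 and -0.0194 between other samples. A shared source of same-numbered samples was not tested. Of 77 named calls (members and partners), 29 held in all 12 alternatives other than leaving out 1 sample, the sets alone included. Among 5070 refitted estimates, those of called results included, 91 changed sign without a call in either fit. Causes of these shifts, the smaller number of samples in a set among them, were not tested.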

Other observations

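Of the 67 named channel genes with fewer than 50 read pairs per sample on average, 55 were tested. From RD to HFD 3 of them passed, from RD to HFD-O304 2 passed, and from HFD to HFD-O304 8 passed, which is 5.45%, 3.64% and 14.5% beside 3.54%, 1.31% and 11.9% of all genes. Kcnk10, a tandem-pore channel opened by stretch and lipids, passed in all 3 comparisons. It had 17.3 to 73.7 in RD (median 42.7), 46.9 to 125 in HFD (median 89.3) and 7.84 to 19 in HFD-O304 (median 11.8) normalised read pairs, with log2 fold changes of 1.16 ± 0.27 (SE, adjusted p = 0.00746) in HFD vs RD, -1.48 ± 0.31 (SE, adjusted p = 0.00643) in HFD-O304 vs RD and -2.64 ± 0.30 (SE, adjusted p = 4.5e-07) in HFD-O304 vs HFD, and HFD and HFD-O304 did not overlap. Kcng3, a silent modifier subunit, had 7.47 to 12.1 in RD (median 10.6), 0 to 10.4 in HFD (median 6.03) and 13.2 to 39.2 in HFD-O304 (median 28.9) and was the only channel gene by name that was higher in HFD-O304 than in RD, at 1.40 ± 0.30 (SE, adjusted p = 0.00647). All its HFD-O304 samples were above all samples of both RD and HFD. Kcnd3, an A-type pore, had 18.2 to 27.5 in RD (median 24.9), 3 to 17.9 in HFD (median 10.4) and 11.4 to 39.2 in HFD-O304 (median 26.7), with HFD below all RD samples at -1.29 ± 0.28 (SE, adjusted p = 0.00455) and a difference of 1.29 ± 0.28 (SE, adjusted p = 0.00156) in HFD-O304 vs HFD. Kcnj5, a G protein-gated inward rectifier, was lower in HFD than in RD at -0.90 ± 0.21 (SE, adjusted p = 0.00863). In HFD-O304 vs HFD, Cacna2d4 and Kcnj4 were higher at 1.06 ± 0.20 (SE, adjusted p = 0.000257) and 0.87 ± 0.23 (SE, adjusted p = 0.0071), and Cacna1f, Kcnj13 and Kcns3 were lower at -0.98 ± 0.18 (SE, adjusted p = 0.000177), -1.69 ± 0.37 (SE, adjusted p = 0.00133) and -1.66 ± 0.34 (SE, adjusted p = 0.000631). These genes have few reads, and their results in fits without single samples are not given here.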
